A study of Mus musculus with 6 samples.

Results

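Of the 52550 mouse genes in the table, 8 adipogenic transcription factors were examined, chosen by name: Pparg, Cebpa, Cebpb, Cebpd, Ebf1, Ebf2, Klf5 and Zfp423. Each was found once. RNA came from the quadriceps of male mice aged 13 weeks, and libraries were made with QuantSeq. This method reads only near the poly(A) tail, so that a transcript gives about 1 read whatever its length and levels can be compared between genes. The FLExDUX4 group held 3 mice, hemizygous for an inverted human DUX4 transgene at the Rosa26 locus with no Cre driver, from which DUX4 leaks at a low level, and the WT group held 3 littermates without it. The methods of the study name triceps muscle and a younger age, whereas the sample labels give quadriceps and 13 weeks. The transgene itself was not analysed here. The question asked of these genes was whether the regulators that drive fat cell formation differ in level in muscle that carries the transgene.

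Adipogenesis turns a mesenchymal progenitor into a fat cell through a cascade of transcription factors. Zfp423, Ebf1 and Ebf2 mark or commit the progenitor. Cebpb, Cebpd and Klf5 are switched on early and act on the promoters of Pparg and Cebpa, which then sustain each other and turn on the genes of the mature fat cell. In skeletal muscle these factors are found mainly in the cells between the fibers, such as fibro-adipogenic progenitors, fat cells and vessel walls, and several of them, Cebpb and Cebpd above all, also answer to inflammation and glucocorticoids.

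Values per genotype were totals over the mice of a group, so they carry no spread between mice and no p-value, and 1 mouse could decide a difference. Genes drew 13110125 counts in the FLExDUX4 total and 18367364 in the WT total. Levels are given as scaled CPM, counts in proportion to the TMM-scaled library size. Differences are given as the log2 ratio of FLExDUX4 to WT with a 95% interval that covers counting error only. A filter on low counts kept 13396 genes for comparison. All 8 factors passed it, with at least 42 counts in each total. As for the tissue, 8 markers common to skeletal muscle fibers summed to 114638 CPM in FLExDUX4 and 115171 CPM in WT, and none of them reached a log2 ratio of 0.5 in size. These markers show skeletal muscle but do not tell quadriceps from triceps. In the bulk RNA used here, fewer cells of a type and less RNA per cell cannot be told apart.

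Among the 8 factors, Ebf2 was lower and Pparg higher in FLExDUX4 muscle, and the other 6 lay within 0.33 of equality on the log2 scale. Ebf2 had 113 counts in the FLExDUX4 total and 314 in the WT total, or 8.71 and 16.9 CPM, which is 1.94-fold lower (log2 ratio -0.95, interval -1.28 to -0.64). Pparg had 69 counts against 54, or 5.32 and 2.91 CPM, which is 1.82-fold higher after scaling (log2 ratio 0.87, interval 0.34 to 1.41). Thus 2 of the 8 factors reached a log2 ratio of 0.5 in size, 1 in each direction, beside 31.4% of all genes compared, of which 15.7% were higher and 15.7% lower. The intervals of 3 factors excluded 0, those of Ebf2, Pparg and Cebpd, beside 41.1% of all genes. Neither share was above that of genes at large, and the median log2 ratio was 0.02 for the 8 factors and -0.001 for all genes compared. The direction of the 8 factors together is set by the scaling, since spike-in scaling puts 6 of them below 0.

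Because ratios scatter more at low counts, each factor was also set beside genes of similar depth. Among 4730 genes with 100 to 500 counts in both totals together, 13.4% were lower and 14.3% higher by a log2 ratio of at least 0.5. In this range, 3.51% of genes lay below Ebf2 and 3.93% lay above Pparg. Pparg is near the low end of that range, where ratios scatter more, and among 1138 genes with 100 to 150 counts 8.0% lay above it. Among 1082 genes with 350 to 500 counts, 0.739% lay below Ebf2. Among 863 genes with 1000 to 1500 counts, 3.36% passed 0.5 in either direction. The 3 factors in that range, Cebpb, Cebpd and Ebf1, did not, and 6.95% of those genes lay above Cebpd.

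**Figure D1:**
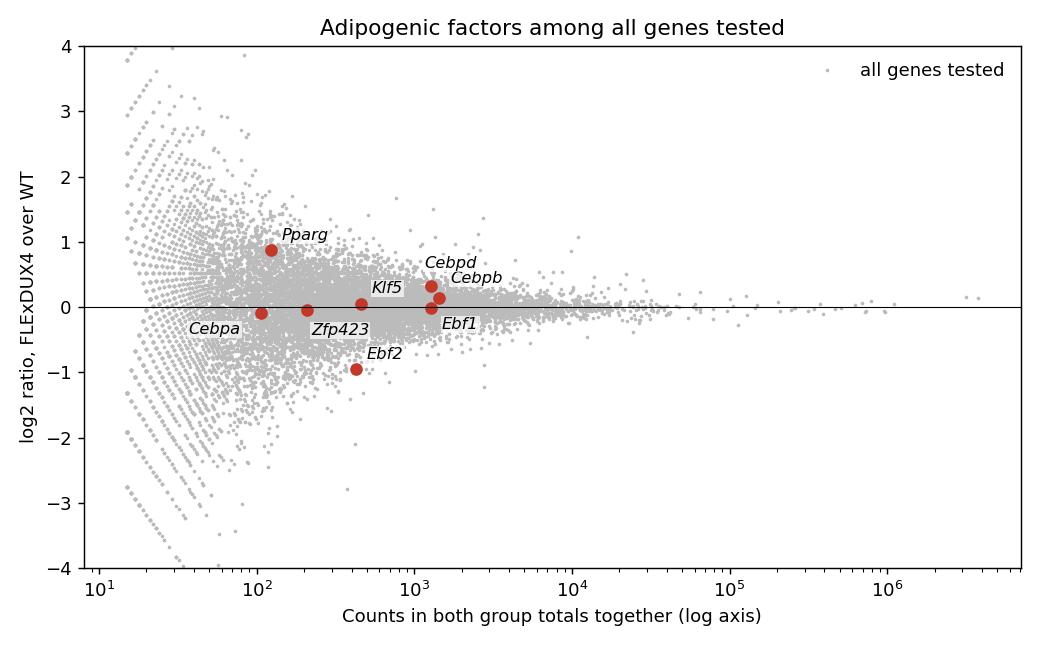
Log2 ratio of FLExDUX4 to WT (vertical axis) against the counts of both totals together (horizontal log axis) for all genes compared (grey) and the 8 factors (red). Ebf2 at -0.95 and Pparg at 0.87 lie toward the lower and upper edges of the cloud at their depth, and the other 6 lie in its middle or, for Cebpd at 0.33, above it; 109 genes lie beyond the axis limit of 4.

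Pparg encodes the nuclear receptor PPARγ, without which fat cells do not form. It is annotated on chromosome 6 of GRCm38, 115360951 to 115490399, on the plus strand. Of its 5 annotated coding transcripts, 3 end within 10 bases of the end of the gene. They include the transcript from the first start of the gene and the one from the start at 115422066, which is that of the longer protein PPARγ2. The counts of this assay therefore cannot be split between those forms. To show how unlike these promoters are, 300 bases around a RefSeq start of each are given below, from 250 bases before to 50 bases after the start (GRCm38.p6, plus strand). Capitals mark matches to the C/EBP letters TTGCNNAA on either strand.

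Pparg upstream start, chr6:115360894-115361193: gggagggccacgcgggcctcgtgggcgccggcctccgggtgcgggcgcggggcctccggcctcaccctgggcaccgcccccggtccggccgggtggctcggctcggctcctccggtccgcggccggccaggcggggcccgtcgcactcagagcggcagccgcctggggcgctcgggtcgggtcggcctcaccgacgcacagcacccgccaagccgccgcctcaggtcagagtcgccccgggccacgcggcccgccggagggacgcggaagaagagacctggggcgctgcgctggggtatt
Pparg internal start, chr6:115421816-115422115: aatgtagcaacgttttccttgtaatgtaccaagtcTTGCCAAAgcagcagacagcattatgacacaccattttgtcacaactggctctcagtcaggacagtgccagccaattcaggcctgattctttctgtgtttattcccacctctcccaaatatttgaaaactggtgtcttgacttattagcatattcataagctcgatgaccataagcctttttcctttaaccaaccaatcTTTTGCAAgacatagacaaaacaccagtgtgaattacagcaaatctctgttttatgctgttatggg

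The internal promoter held 2 matches, beginning 215 and 16 bases before the start, and the upstream promoter held 0. A match is a description of letters and not a bound site. Of 32851 mouse promoters of the same length in the RefSeq table, 10.8% held at least 1 match. Promoters were listed for 5 of the 8 factors, 9 promoters in all, and beside the internal one of Pparg only the outer promoter of Zfp423 held such letters, with 2 matches. The KLF letters CCNCNCCC were present in all 9, and in 49.5% of all promoters. They occurred 4 times in the upstream and 1 time in the internal Pparg promoter, overlapping no C/EBP match in the latter. The palindromic EBF motif, found in 0.904% of all promoters, and the PPAR direct repeat, found in 0.0396%, had 0 matches in all 9. Promoters of Cebpd, Ebf2 and Klf5 were not analysed here.

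Cebpa, the partner that maintains Pparg in the mature fat cell, was near equality. Cebpa (chromosome 7, 35119293 to 35121928) had 42 counts in FLExDUX4 and 64 in WT, or 3.24 and 3.45 CPM. The log2 ratio was -0.09, with an interval of -0.69 to 0.49 that reaches from well below equality to nearly the size of 0.5, so a difference of moderate size was not detectable at this depth. The ratio of Pparg was higher than that of Cebpa by 0.96 (interval 0.15 to 1.77), a comparison in which the scaling cancels. Pparg and Cebpa were the least abundant of the 8 factors in WT muscle, at 2.91 and 3.45 CPM, and their order was not resolved there. In FLExDUX4 muscle Pparg stood above Cebpa.

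The other receptors of the PPAR family were measured in the same libraries. Ppara, which drives fatty acid oxidation, had 282 counts against 300 (log2 ratio 0.43, interval 0.19 to 0.67), and the value was 0.15, with an interval that held 0, after scaling to spike-in RNAs. Ppard, the ubiquitous member, had 136 against 171 (log2 ratio 0.19, interval -0.15 to 0.52), or -0.09 with spike-in scaling. Pparg made up 14.2% of the PPAR counts in FLExDUX4 (interval 11.2 to 17.6) and 10.3% in WT (7.82 to 13.2), Clopper-Pearson intervals that overlap. Ppara held the largest share in both, at 57.9% and 57.1%. Within its own family, then, the higher share of Pparg was not resolved by these counts.

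**Figure D2:**
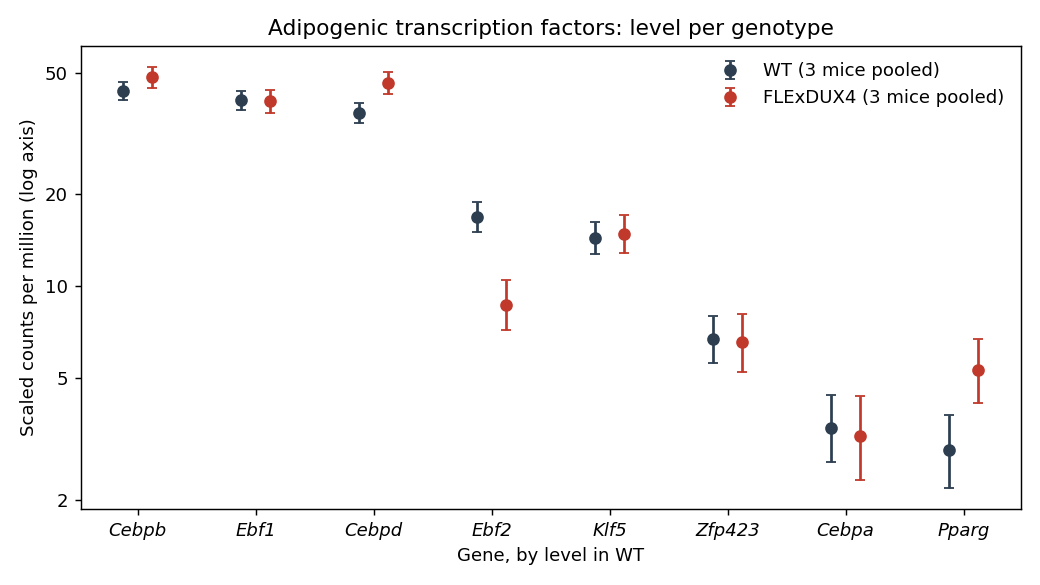
Level of each factor in scaled CPM (vertical log axis) in the WT and FLExDUX4 totals, each a pool of 3 mice, with genes ordered by their level in WT. Bars are exact 95% Poisson intervals for counting error; those of Ebf2 (8.71 against 16.9 CPM), Pparg (5.32 against 2.91 CPM) and Cebpd (46.3 against 36.9 CPM) do not overlap between the groups.

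Of the early inducers, Cebpb and Cebpd stood among the 3 most abundant factors in both groups, and Cebpd was the third factor whose interval lay off 0. Cebpb, induced within hours of an adipogenic stimulus and also an acute phase regulator, had 626 counts in FLExDUX4 and 809 in WT, or 48.2 and 43.6 CPM. Its log2 ratio was 0.15 (interval -0.01 to 0.30). Cebpd, which is induced alongside Cebpb and strongly by glucocorticoids, had 601 against 685, or 46.3 and 36.9 CPM. Its log2 ratio was 0.33 (interval 0.17 to 0.49), the second highest of the 8, and 1.26-fold. With spike-in scaling Cebpb stood at -0.13 and Cebpd at 0.05, so that Cebpb changed sign and the interval of Cebpd then held 0. Klf5, a zinc finger factor that Cebpb and Cebpd turn on and that acts on Pparg, had 193 counts against 267, or 14.9 and 14.4 CPM (log2 ratio 0.05, interval -0.23 to 0.32), and stood at -0.23 with spike-in scaling.

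Cebpb (chromosome 2, 167688915 to 167690418) and Cebpd (chromosome 16, 15887286 to 15891031) are single-exon genes with 1 annotated coding transcript each, so a 3′ assay meets a single end. Both are overlapped by a gene on the opposite strand. Tmem189, over Cebpb, had 87 counts in FLExDUX4 and 231 in WT, and Spidr, over Cebpd, had 8 and 19. The 2 overlaps differ, since the annotated 3′ end of Tmem189, at 167642608, lies outside Cebpb, while that of Spidr, at 15889224, lies inside Cebpd. Whether the authors' counting used the strand is not given in the sources used here, and reads in an overlap cannot be assigned without it. Klf5 (chromosome 14, 99298691 to 99315036) has 2 annotated coding transcripts with different 3′ ends, and no gene overlaps it.

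Within the C/EBP family the shares differed by at most a few percentage points. Cebpb took 30.2% of the family's counts in FLExDUX4 and 30.8% in WT, and Cebpa 2.03% and 2.44%. Cebpd took 29.0% (interval 27.1 to 31.0) in FLExDUX4 and 26.1% (24.4 to 27.8) in WT. Cebpg, a widely expressed partner of the other C/EBP proteins, took 29.0% (27.0 to 31.0) and 32.3% (30.5 to 34.1). The intervals of Cebpd and of Cebpg overlap between the groups only at their ends. Cebpg had 600 counts against 847 (log2 ratio 0.02, interval -0.13 to 0.17). Ddit3, which encodes the stress-induced inhibitor CHOP, had 203 against 217 (log2 ratio 0.42, interval 0.14 to 0.70), or 0.14 with spike-in scaling, where its interval held 0. Cebpz, a factor that binds the same CCAAT letters without being a C/EBP protein, had a log2 ratio of 0.01 (interval -0.19 to 0.21). Cebpe, a granulocyte gene, was at the floor, with 0 counts and 2.

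Progenitor factors split. Ebf1, which also directs B cell development, had 523 counts in FLExDUX4 and 753 in WT, or 40.3 and 40.6 CPM. Its log2 ratio was -0.01 (interval -0.17 to 0.15), the closest to 0 of the 8. Ebf2, which selects brown and beige fat precursors and opens chromatin with PPARγ at their genes, was the factor with the lowest ratio, as given above. The ratio of Ebf1 exceeded that of Ebf2 by 0.95 (interval 0.59 to 1.31), independent of scaling. Zfp423, a zinc finger protein that commits cells to the white fat lineage and binds EBF proteins, had 85 counts against 125, or 6.55 and 6.74 CPM (log2 ratio -0.04, interval -0.45 to 0.37).

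In the EBF family, the share of Ebf2 was 13.7% of the counts in FLExDUX4 (interval 11.4 to 16.2) and 24.1% in WT (21.8 to 26.6), intervals that do not overlap. Ebf3 took 22.4% (19.6 to 25.4) in FLExDUX4 and 17.7% (15.6 to 19.9) in WT, from 185 and 230 counts. Its log2 ratio was 0.20 (interval -0.08 to 0.49), or -0.07 with spike-in scaling. Ebf1 took 63.4% and 57.9%. Ebf4 had 4 counts in each total. Thus Ebf2 was the second most abundant EBF transcript in WT and the third in FLExDUX4. Zfp521, a relative of Zfp423 that opposes it and blocks Ebf1, had 58 counts against 129 (log2 ratio -0.63, interval -1.11 to -0.18).

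**Figure D3:**
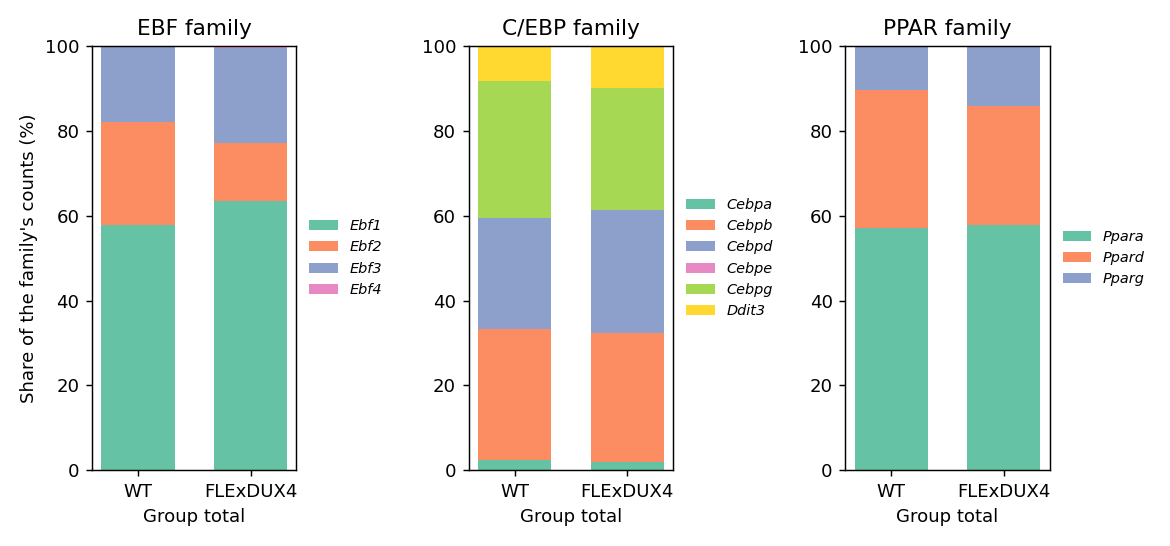
Share of each gene in the summed counts of its family (vertical axis, percent) in the WT and FLExDUX4 totals for the EBF, C/EBP and PPAR families; these shares do not depend on the scaling. Ebf2 takes 24.1% of the EBF counts in WT and 13.7% in FLExDUX4, while the C/EBP shares differ by at most a few percentage points.

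Ebf2 (chromosome 14, 67233292 to 67430918, plus strand) has 3 annotated coding transcripts with 3 different 3′ ends within 2231 bases. Ebf1 (chromosome 11, 44617317 to 45008091, plus strand) also has 3, within 3096 bases. All overlapping genes on the opposite strand of Ebf1 and Ebf2 were listed at 0 counts in both totals, and those over Pparg and Cebpa had at most 1 count. Zfp423 (chromosome 8, 87661810 to 87959595, minus strand) has 5 coding transcripts, of which 3 end within 10 bases of the end of the gene.

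In WT muscle the levels ran Cebpb, Ebf1, Cebpd, Ebf2, Klf5, Zfp423, Cebpa and Pparg, from 43.6 to 2.91 CPM. Neighbours in that order differed beyond counting error at 3 of 7 steps, below Cebpd, below Klf5 and below Zfp423. In FLExDUX4 muscle the order was Cebpb, Cebpd, Ebf1, Klf5, Ebf2, Zfp423, Pparg and Cebpa, and 4 of 7 steps were resolved, below Cebpd, Ebf1, Klf5 and Pparg. Klf5 and Ebf2, whose order was not resolved in WT, stood apart in FLExDUX4, at 14.9 and 8.71 CPM. Of the 28 pairs of factors, 13 had ratios that differed by more than the counting interval, without adjustment for the number of pairs. Of these, 6 involved Pparg and 7 involved Ebf2, the pair of both included, and only the difference between Cebpd and Ebf1, at 0.34 (interval 0.11 to 0.57), involved neither.

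**Figure D4:**
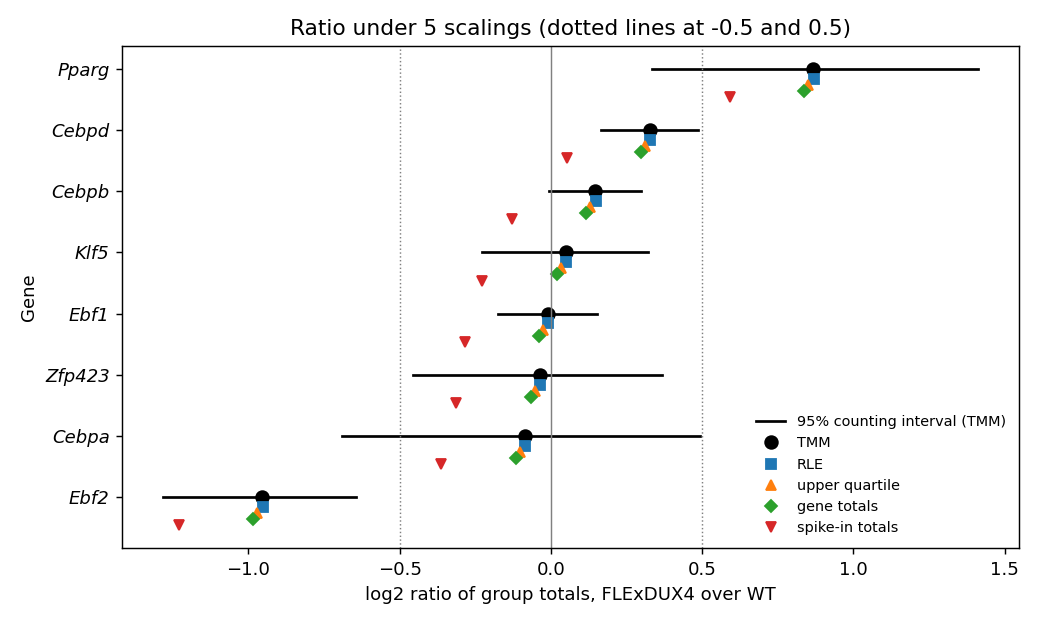
Log2 ratio of FLExDUX4 to WT for each factor (horizontal axis) with its 95% counting interval under TMM scaling (black), and the value under 4 other scalings (colored marks, drawn slightly lower). Spike-in totals move every gene down by 0.28, which leaves Pparg at 0.59 and Ebf2 at -1.23 and takes Cebpb and Klf5 below 0.

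The scaling mattered for the genes near equality. Scaling to the spike-in totals put the median of all genes at -0.28, and the 8 factors at a median of -0.26. It lowers every ratio alike, so in any list fewer genes can pass 0.5 upward and more can pass it downward. The share of all genes past 0.5 was not counted with the spike-ins. Under spike-in scaling Ebf2 stood at -1.23 (interval -1.56 to -0.92) and Pparg at 0.59 (interval 0.06 to 1.14). Both kept their direction under all 5 scalings. Ebf1, at -0.29 (interval -0.45 to -0.12), had an interval below 0 with the spike-ins alone and lay at the median of all genes there.

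Target genes of PPARγ and the C/EBP proteins were then set beside Pparg, from a list of 20 that includes the markers of fat cells. Of these, 14 were higher and 6 lower in FLExDUX4, and their median log2 ratio was 0.22. Under spike-in scaling 9 were above 0 and the median was -0.05. Past 0.5 in size were 7 of 20, 4 higher and 3 lower, and with spike-in scaling 1 higher and 4 lower. Those 7 are 35.0% of the list, near the 31.4% of all genes compared. The 31.4% takes in genes of all depths, and among genes with 1000 to 1500 counts the share was 3.36%. With TMM, 12 intervals of the list lay above 0 and 3 below it. Of all genes, 41.1% had an interval off 0. Intervals are narrower at high counts, so this share depends on depth too. The highest were Cfd, the fat cell serine protease adipsin, with 1468 counts against 1144 (log2 ratio 0.88, interval 0.76 to 0.99), and Plin4, a lipid droplet coat protein, with 2333 against 2025 (log2 ratio 0.72, interval 0.63 to 0.81, and 0.44 with spike-in scaling). The lowest were Angptl4, an inhibitor of lipoprotein lipase and a direct PPAR target, with 13 against 41 (log2 ratio -1.10, interval -2.16 to -0.21), and the hormone gene Lep, with 12 against 31 (log2 ratio -0.82, interval -1.95 to 0.15, and -1.09, interval -2.23 to -0.13, with spike-in scaling). The list summed to 2527 CPM in FLExDUX4 and 2167 CPM in WT, and no gene of it was at 0. Several of these genes are also made by muscle fibers and vessels, and the part that fat cell content has in the ratio of Pparg was not tested.

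Markers of fibro-adipogenic progenitors, the muscle cells in which Ebf2, Ebf1 and Zfp423 can be found, went both ways. Of 10, 5 were higher and 5 lower, with 2 intervals above 0 and 3 below it (beside 41.1% of all genes with an interval off 0), and the median log2 ratio was -0.02. Spike-in scaling left 3 of the 10 above 0. The list summed to 924 CPM in FLExDUX4 and 893.5 CPM in WT, of which the matrix gene Dcn made 739 and 720 CPM. Osr1, a transcription factor of these progenitors, was the lowest and the only marker past 0.5 with TMM (1 of 10, beside 31.4% of all genes, and 4 lower with spike-in scaling), with 34 counts against 86 (log2 ratio -0.81, interval -1.44 to -0.23), and Dpp4 came next at -0.37, with an interval that held 0 (-0.65, interval -1.28 to -0.06, with spike-in scaling). Lum and Ly6a, a proteoglycan and the surface antigen Sca-1, were the highest, at 0.48 (interval 0.26 to 0.70) and 0.44 (interval 0.30 to 0.58). With spike-in scaling Ly6a stood at 0.16, and Lum stood at 0.20 with an interval of -0.02 to 0.42 that held 0. Pericyte and smooth muscle markers, 5 of 5 higher and 1 of 5 after spike-in scaling, had a median of 0.11, and none passed 0.5. Acta2 was highest at 0.38 (interval 0.22 to 0.54, or -0.06 to 0.27 with spike-in scaling) and Pdgfrb followed at 0.14 (interval -0.10 to 0.38), while Myh11 at 0.02 and Rgs5 at 0.06 were lowest. Their part in the ratio of Ebf2 was not tested.

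Markers of brown and beige fat, whose precursors Ebf2 marks, were mostly low in counts. The thermogenic gene Ucp1 and Elovl3 had 0 counts in both totals, and Cidea had 3 and 15. Of 6 brown and beige markers, 3 were compared. The log2 ratio was -1.63 for Cidea (interval -4.24 to 0.02, and -1.91, interval -4.51 to -0.26, with spike-in scaling). Dio2 stood at 0.05 (interval -0.72 to 0.78). Cox8b, a gene of muscle mitochondria too, stood at 0.05 (interval 0.01 to 0.09, and below 0 with spike-in scaling). Tmem26, a beige marker, had 14 counts in FLExDUX4 and 0 in WT. Markers of B cells, in which Ebf1 is a defining factor, were low: Cd79a had 0 counts in both totals, Ms4a1 and Cd79b each had 1 and 4, and Pax5 had 0 and 17. These 4 B cell markers together came to 2 counts in FLExDUX4 and 25 in WT, beside 523 and 753 for Ebf1.

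Other regulators of adipogenesis were taken from 2 lists. Of 18 positive regulators, 10 were higher and 8 lower (6 higher after spike-in scaling), and the median log2 ratio was 0.10. With TMM only Klf15 and Egr2 passed 0.5, both higher, whereas gene totals gave 2 higher and 2 lower and spike-in totals 2 higher and 4 lower. The 2 with TMM are 11.1% of the list, beside 31.4% of all genes compared. Klf15, induced by glucocorticoids and active on the Pparg promoter, had 342 counts against 252 (log2 ratio 0.96, interval 0.72 to 1.20). Egr2, an early inducer upstream of Cebpb, had 12 counts against 6, with an interval of -0.01 to 3.22 that held 0. The next highest was the PPARγ coregulator Tle3 at 0.42 (interval -0.03 to 0.86). The lowest were Klf4, an activator of Cebpb, with 367 against 734 (log2 ratio -0.48, interval -0.67 to -0.30, and -0.76 with spike-in scaling), and Prdm16, the partner of Ebf2 in the brown fat program, with 65 against 130 (log2 ratio -0.48, interval -0.94 to -0.04, and -0.75 with spike-in scaling).

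Of 18 negative regulators, 16 were compared, 8 higher and 8 lower (7 higher after spike-in scaling), and the median log2 ratio was 0.09. Here 7 passed 0.5, 4 higher and 3 lower, and with spike-in scaling 3 higher and 5 lower. Those 7 are 43.8% of the list, beside 31.4% of all genes compared. The highest were Dlk1, the preadipocyte protein Pref-1, with 35 counts against 11 (log2 ratio 2.14, interval 1.18 to 3.31), and Foxo1, which represses Pparg and acts in muscle atrophy, with 872 against 438 (log2 ratio 1.51, interval 1.34 to 1.68). The lowest were Klf2, a repressor of the Pparg promoter abundant in endothelium, with 534 against 1188 (log2 ratio -0.64, interval -0.79 to -0.49), and Zfp521. The 2 members of the list that were not compared had at most 2 counts in each total.

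**Figure D5:**
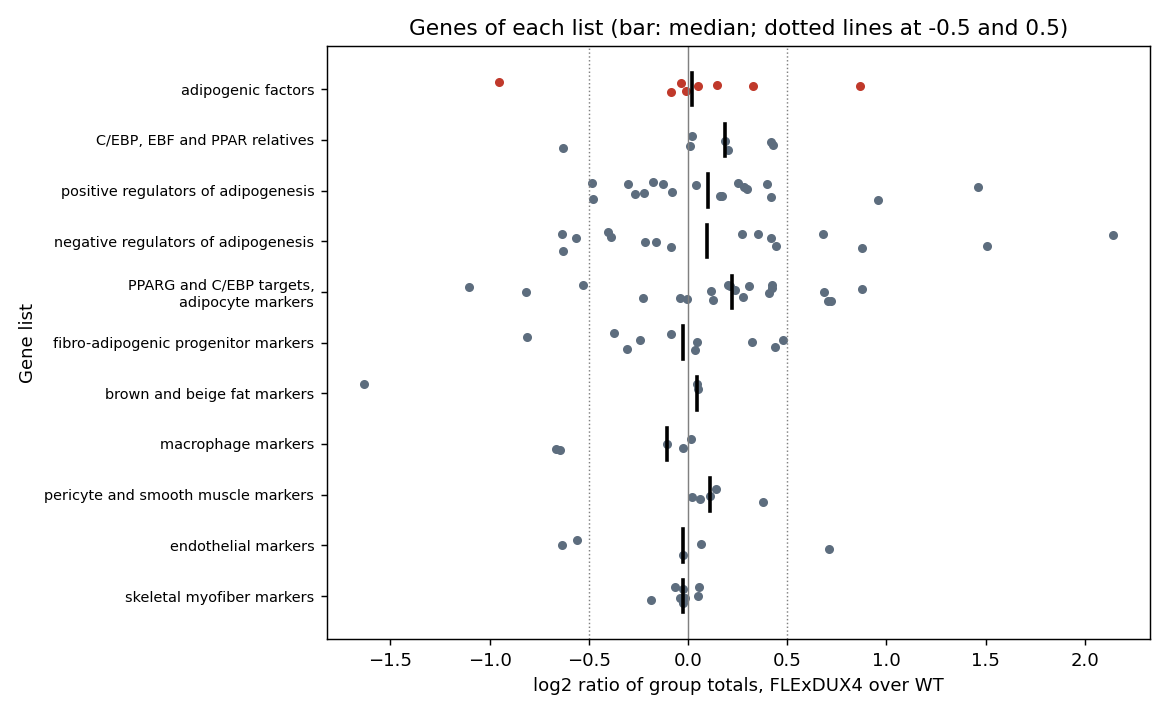
Log2 ratio of FLExDUX4 to WT (horizontal axis) for each gene compared, by list (vertical axis), with the 8 adipogenic factors in red, list medians as black bars and dotted lines at -0.5 and 0.5. The B cell list, with 1 gene compared, is left out; the factors have a median of 0.02, and the fat cell list one of 0.22.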

How the data were processed

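RNA from 6 quadriceps samples was sequenced for the authors by Lexogen with QuantSeq. Reads were trimmed with Cutadapt 1.16, aligned with STAR 2.5.3a to GRCm38 joined to ERCC and SIRV spike-in sequences, and counted, with featureCounts 1.6.2 named in the submitters' processing notes. The deposited table holds raw counts summed over each genotype, which were used here. It also holds 6 columns of single mice whose names match no sample label. Further columns give the mean, fold change, standard error, Wald statistic and p-values of the authors' DESeq2 comparison. Neither set of columns was used in any step.

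Group totals were scaled with TMM in edgeR 4.0.16 (R 4.3.3) over 13396 genes kept by filterByExpr. Log2 ratios used a pseudocount of 0.5. Clopper-Pearson intervals at 95%, exact Poisson intervals and conditional odds-ratio intervals between genes came from scipy 1.17.1 (Python 3.11.15). They cover counting error only. A difference was marked at a log2 ratio of 0.5 in size, and 3 counts or fewer in a total was taken as the floor. The planned edgeR test across mice was not run, because the names of the single-mouse columns match no label, and columns were not assigned to a genotype by their values or by how they add up to the totals. The spread between mice was therefore not analysed here. No p-value is given for a pooled total.

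Simulated counts with 200 changed genes were used to check that the intervals were computed correctly, and 95.5% of those genes had the true value inside. The counts were drawn with counting error alone and a known scaling. The check therefore leaves out spread between mice and error in the scaling. Gene models are from GENCODE M21 (GRCm38), a later release than that of the authors, and all 8 starts equal the deposited positions. Promoters are from RefSeq (GRCm38.p6). The factors, gene lists and depth ranges (the narrower ones last) were chosen with earlier results of these data known. Genes named from a list are all relatives of the C/EBP, EBF and PPAR families and at most the 2 highest and 2 lowest ratios of each other list among genes with at least 20 counts, plus cell type markers at or near 0. A further B cell marker is not reported here. Egr2, Tmem26, Cidea, Pax5, Dcn and the markers of B cells with over 3 counts in a total were named outside this rule, after their values were seen.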

Additional observations from a re-analysis of the deposited data

How the results depend on the processing

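No paired analysis was possible because the single-mouse columns carry no replicate number and their names match no label. Columns were not assigned to a genotype by their values or by how they add up to the totals, so the edgeR and DESeq2 tests across mice, with and without a filter, and leaving out each mouse were not run.

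Of the 8 factors, 2 were past a log2 ratio of 0.5 under TMM, RLE, upper quartile, gene totals, spike-in totals, both other filters and a pseudocount of 2, and 0 at a fold of 1 on the log2 scale. The intervals of 3 factors excluded 0 under all scalings, with Ebf1 in place of Cebpd under the spike-ins. Among single factors, Cebpb (-0.13) and Klf5 (-0.23) changed sign with spike-in totals, both from ratios whose intervals held 0, and no other setting changed a sign. Some numbers of list genes past 0.5 moved by over 1.5 times. With gene totals there were 4 positive regulators in place of 2. Spike-in totals gave 6 positive regulators in place of 2 and 4 progenitor markers in place of 1, with every added gene lower. Spike-in totals lower every ratio alike, so the number of genes below -0.5 can only rise with them in any list. With no filter there were 3 relatives, 2 brown fat markers and 3 B cell markers in place of 1 each, and with at least 10 counts in each total 1 positive regulator and 0 brown fat and B cell markers. At a fold of 1 there were 0 relatives, 1 positive regulator, 2 negative regulators, 1 target gene, and 0 progenitor, macrophage and endothelial markers. The share of all genes past the mark was counted with TMM at 0.5 only. Counts under the other settings, those of the 8 factors included, thus have no share of all genes beside them. What lies behind the lower spike-in ratios was not tested. Depth limits the log2 ratios to about 0.15 either way for Cebpb and 0.59 for Cebpa.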

Other observations

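Vessel and immune markers, measured because several adipogenic factors are also made there, differed within their lists. Of 5 endothelial markers, Kdr and Tek, receptors of VEGF and angiopoietin, were lower, with 632 counts against 1334 (log2 ratio -0.56, interval -0.70 to -0.42) and 80 against 178 (log2 ratio -0.63, interval -1.04 to -0.25). Vwf, the clotting factor carrier of endothelium, was higher, with 243 against 212 (log2 ratio 0.71, interval 0.44 to 0.99, and 0.44 with spike-in scaling). Pecam1, present on all endothelium, stood at 0.06 on the log2 scale (interval -0.07 to 0.20), or -0.21 with spike-in scaling. The list summed to 172 CPM in FLExDUX4 and 189.5 CPM in WT.

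Of 5 macrophage markers, Adgre1 (24 counts against 55) and Cd68 (23 against 52) had the lowest ratios, -0.66 (interval -1.44 to 0.04) and -0.64 (interval -1.44 to 0.07), and both intervals held 0, but lay below 0 with spike-in scaling (-0.94, interval -1.71 to -0.24, for Adgre1 and -0.92, interval -1.71 to -0.20, for Cd68). Lyz2 and Csf1r were near equality, at -0.02 and 0.01. Among the muscle fiber markers the ratios ran from -0.19 for Myh1 and -0.07 for Myh4 to 0.05 for both Acta1 and Ckm, both below 0 with spike-in scaling. These are single totals of 3 mice each, without a replicate check.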
